A study of Rattus norvegicus with 12 samples.

Results

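The dorsal root ganglia (DRG) of wild-type rats were compared between the side whose sciatic nerve had received the myelin basic protein (MBP) peptide MBP84-104 and the opposite, contralateral side. The comparison rests on 2 of the 12 arrays of the series, 1 for each side. It took the probes that were well above background on at least 1 of these 2 arrays, a flag of the scanner software for a spot clearly brighter than its surroundings. They were 22381 of 30367 probes. A log2 ratio, injected side over contralateral side, could be given for 21786 of them and for 11521 of 15159 named genes. In 10671 genes both sides were measured. In the remaining 850 genes the probe was dim on 1 side, and the ratio is called a bound. A dim signal below the lowest signal well above background on its array was raised to that level, which gives an "at least". A dim signal above that level was kept, and the ratio is then one to an uncertain dim value.

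By the labels, the wild-type rats were Sprague-Dawley females of 8 weeks, and L4 and L5 DRG were collected 12 days after 50 μg of the peptide in 5 μL of phosphate-buffered saline (PBS) had been injected into the left sciatic nerve. According to the labels of the nerve samples, the right sciatic nerve received PBS, so the contralateral ganglia are those of a PBS-injected nerve and not of an untouched animal. RNA of 3 rats was pooled on each array. The values are set beside the DRG of athymic nude females (Hsd:RH-Foxn1rnu, rnu-/-, 8 weeks, injected in the same way, day 7), which lack mature T cells, and beside the sciatic nerve of the wild-type rats. The text of the study instead calls its wild-type rats heterozygous (rnu+/-) and has both rat types collected at the same time, so the strain and the day given here rest on the labels alone. As labelled, the wild-type and the nude DRG differ in strain, day and slide as well as in T cells, and these cannot be told apart. With 1 array per side no p-value is given, and no difference between the sides has a replicate check. The spots of a probe within an array measure only how evenly the array was read. A log2 ratio of probes with several spots had a typical spot error of 0.12 where the probe was well above background on both arrays.

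The DRG hold the cell bodies of the sensory neurons whose axons run in the sciatic nerve, together with satellite glia, Schwann cells, vessels and resident macrophages. Damage to the axon in the nerve is known to change transcription in the cell body. Injured sensory neurons switch on transcription factors such as Atf3 and Jun, neuropeptides such as galanin (Gal) and vasoactive intestinal peptide (Vip), and growth-associated proteins. Fewer cells of a type and less RNA per cell cannot be told apart in RNA of whole ganglia.

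The stretch of 250 bases before the transcription start is shown for 5 genes that were higher on the injected side, all of them secreted. Gal, Vip and Vgf are precursors of neuronal peptides, Reg3b is a lectin and Cxcl14 a chemokine. The sequences are those of RefSeq on the GRCr8 build, read towards the gene. Capitals mark matches to TGACGTCA, the full cyclic AMP response element, to its core TGACG on either strand, or to TGANTCA, the AP-1 element. The core lies inside the full element.
Gal (chr1:210084573-210084822, minus strand): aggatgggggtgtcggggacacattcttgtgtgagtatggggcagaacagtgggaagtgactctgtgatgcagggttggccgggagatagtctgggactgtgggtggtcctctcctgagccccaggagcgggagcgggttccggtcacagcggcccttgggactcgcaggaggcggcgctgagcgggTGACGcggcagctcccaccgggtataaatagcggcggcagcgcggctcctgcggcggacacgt
Vip (chr1:44470230-44470479, plus strand): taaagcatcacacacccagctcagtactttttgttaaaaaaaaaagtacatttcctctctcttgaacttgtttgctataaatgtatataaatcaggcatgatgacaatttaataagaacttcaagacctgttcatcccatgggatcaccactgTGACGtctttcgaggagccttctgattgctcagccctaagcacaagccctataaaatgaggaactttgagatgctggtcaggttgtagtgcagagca
Vgf (chr12:25277021-25277270, minus strand): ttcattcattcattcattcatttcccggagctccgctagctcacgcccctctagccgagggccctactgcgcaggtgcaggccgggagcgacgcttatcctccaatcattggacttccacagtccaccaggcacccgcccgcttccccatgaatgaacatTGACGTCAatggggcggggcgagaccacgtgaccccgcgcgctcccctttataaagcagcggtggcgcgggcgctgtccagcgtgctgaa
Cxcl14 (chr17:8322900-8323149, plus strand): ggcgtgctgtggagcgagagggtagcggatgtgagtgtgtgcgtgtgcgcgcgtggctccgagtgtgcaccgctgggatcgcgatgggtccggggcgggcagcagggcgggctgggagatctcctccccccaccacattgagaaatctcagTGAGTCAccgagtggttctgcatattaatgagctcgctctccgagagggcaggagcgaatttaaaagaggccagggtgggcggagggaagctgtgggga
Reg3b (chr4:112419526-112419775, plus strand): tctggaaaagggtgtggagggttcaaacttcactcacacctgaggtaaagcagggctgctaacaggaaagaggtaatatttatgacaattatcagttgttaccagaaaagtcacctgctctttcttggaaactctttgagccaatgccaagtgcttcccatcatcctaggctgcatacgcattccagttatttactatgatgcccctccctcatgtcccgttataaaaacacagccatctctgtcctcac
The Vgf stretch holds the full element TGACGTCA beginning 90 bases before the start, and the Gal and Vip stretches hold its core, at 63 and 97 bases before the start. The Cxcl14 stretch holds TGANTCA at 99 bases before the start, and the Reg3b stretch none of the 3. Of 33469 such stretches in the same table, 1.59% held TGACGTCA, 18.2% held TGACG on either strand and 6.34% held TGANTCA. These are matches of letters and not measured binding sites.

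Both ganglion arrays were bright enough to measure most genes, but they were not equally bright. The median signal of the probes was 57.6 on the injected-side array and 37.6 on the contralateral array, and 73.6% and 65.7% of the probes were well above background. Signals are therefore given as multiples of the median of their own array, and every ratio is relative to that median. The 7 bright probes of the spike-in transcripts, control RNAs added during labelling, differed between the arrays by a log2 of -0.07 to 0.09. Scaling to them in place of the median would move the median of all genes by 0.55 (log2) towards the injected side. The tissue was DRG by its markers. Calca, the precursor of the peptide CGRP, stood at 425 times the array median on the injected side and at 374 on the other, and the sodium channel gene Scn10a at 39.6 and 41.6. Sensory neuron genes had a median log2 ratio of 0.11 over 11 measured genes, with none at least 2-fold apart.

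Of the 11521 genes, 137 (1.19%) were higher on the injected side by 2-fold or more and 70 (0.608%) were lower by that fold. Over all genes the median log2 ratio was 0.02. Of the probes, 311 (1.43%) were higher and 163 (0.748%) lower by that fold. In the nude DRG the shares were 1.79% and 0.803% of 10082 genes, and in the wild-type nerve 5.83% and 4.78% of 10687 genes. The genes apart in the DRG were mostly dim. Of the 137 higher genes 93 were bounds, with the contralateral probe not well above background, and 111 lay among the 2881 genes with the lowest signals, where the median log2 ratio was 0.12. A bound with a dim contralateral side is above 0 by the way it is made, so counts over genes measured on both arrays are given as well. Of those 10671 genes, 44 (0.412%) were higher and 58 lower, and 49.9% were above 0. Of the higher genes, 106 had at least 2 spots on each side, and in 100 of these the spots of the sides did not overlap. Of the lower genes, 41 of 43 did not overlap. These genes were picked for a 2-fold difference, and the typical spot error was 0.12 for probes well above background on both arrays. Spots that lie apart therefore follow largely from the choice of genes, and the counts are no separate check of the differences. That error does not cover dim sides, where the contralateral spots had a log2 SD of 0.04 for Il24 and 0.91 for Ccl17.

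**Figure D1:**
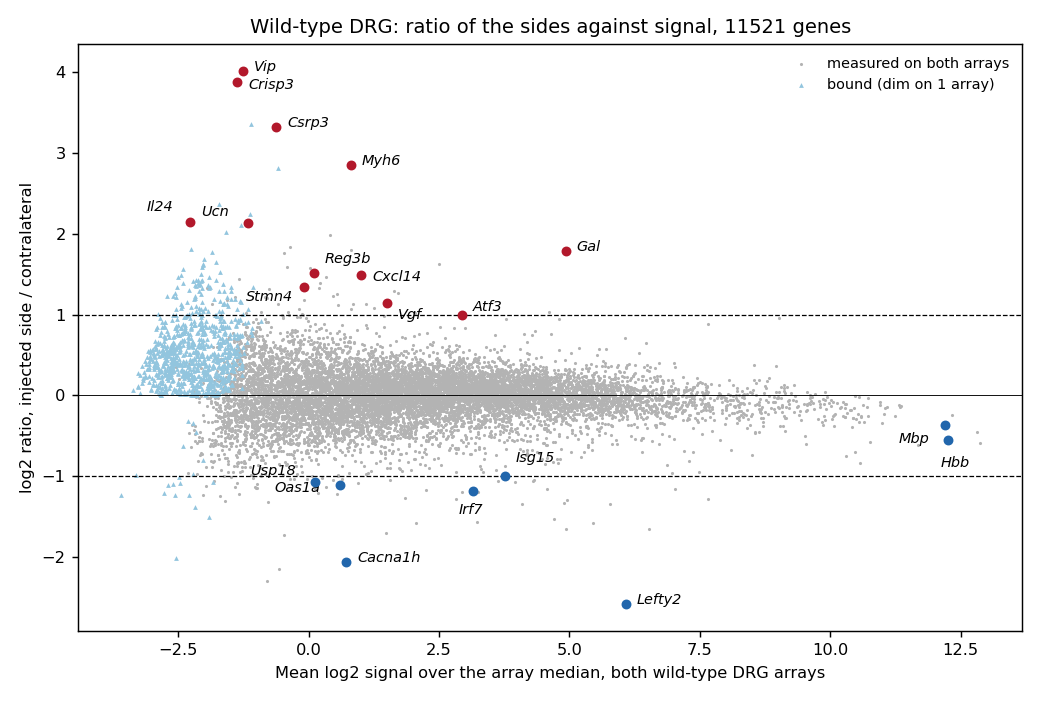
Log2 ratio of injected side over contralateral side (vertical) against the mean log2 signal over the array median (horizontal) for the 11521 genes of the wild-type DRG, with triangles for bounds, dashed lines at 2-fold, and named genes in red (higher) or blue (lower) circles. Gal stands at 1.79 among bright genes where few others leave the band, while Vip, Crisp3 and Csrp3, near the top, are dim on the contralateral side.

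Genes known from injured sensory neurons were among the highest on the injected side. Of 30 genes listed for the axon injury response, 26 had a ratio. Of these, 25 were above 0 and 6 at least 2-fold higher, against 53.4% above 0 and 1.19% at least 2-fold higher among all genes. None was 2-fold lower, and the median log2 ratio was 0.41, against 0.02 for all genes. Like the other lists, the injury list was chosen with earlier results of these data known, so the contrast is no independent check. Of the 26, 5 were bounds, Vip, Csrp3 and Bdnf among them. Over the 21 genes measured on both arrays, 20 were above 0 and 3 at least 2-fold higher, with a median of 0.33. Among all genes measured on both arrays, 49.9% were above 0 and 0.412% at least 2-fold higher. The median of the list ranged from 0.33 to 0.51 in other settings and was 0.96 with the arrays scaled to the spike-in transcripts. In the nude DRG, 18 of 25 were above 0 and 5 at least 2-fold higher, with a median of 0.15. Among all genes of the nude DRG, 53.7% were above 0 and 1.79% at least 2-fold higher.

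Vip, Csrp3 and Gal had the highest ratios of the list. Galanin, a peptide that inhibits transmitter release in the dorsal horn, had a signal of 3203 to 3389 over 9 spots on the injected-side array and of 560 to 701 over 10 spots on the contralateral array. That was 56.8 and 16.4 times the array median, a 3.45-fold difference, and no spots overlapped. The further Gal probe gave a log2 ratio of 1.84 beside 1.79. In the nude DRG the same probe stood at 83.1 and 26.6 array medians, 3.12-fold higher on the injected side. In the wild-type nerve the log2 ratio of Gal was 0.24.

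VIP, a peptide that sensory neurons make little of until their axons are cut, had spot signals of 137 and 142 on the injected side. Its 2 contralateral spots, at 2.39 and 3.11, were not well above background. In wild-type DRG Vip was at least 16.2-fold higher on the injected side, and in nude DRG at least 21.8-fold. The injected sides stood at 2.42 array medians in wild-type and 5.63 in nude DRG. Neurotensin (Nts) was dim on the contralateral side in both rat types, with bounds of 0.40 (log2) in wild-type and 1.05 in nude DRG. Neuropeptide Y (Npy), also on the injury list, was the exception. It was bright on both sides, at 182 array medians on the injected side and 247 on the contralateral side, a log2 ratio of -0.44.

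The transcription factor Atf3, a marker of neurons with a damaged axon, had spots of 608 and 649 on the injected side and of 202 and 208 on the contralateral side. In array medians it was at 10.9 and 5.45, a log2 ratio of 1.00 just short of the 2-fold threshold. In the nude DRG its log2 ratio was 0.79. Other regulators of the response stood closer to 0, with Stat3 at 0.44, Sox11 at 0.42, Smad1 at 0.28, Jun at 0.13 and Klf6 at 0.10. Among these transcription factors Atf3 had the highest ratio.

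Growth and survival genes followed with smaller ratios or dim probes. Stmn4, a stathmin that acts on microtubules, was at 1.49 array medians on the injected side and 0.588 on the contralateral side, 2.53-fold higher. Reg3b, a secreted lectin of injured neurons, was at 1.80 and 0.633, 2.85-fold higher. The ratios of both were lower in nude DRG, at -0.04 for Stmn4 and 0.25 for Reg3b, although Reg3b was bright on both nude arrays, at 7.68 and 6.47 array medians. The neurotrophin gene Bdnf was 2.19-fold over its contralateral signal, which was dim and was not raised. Its log2 ratio was 0.08 with normexp background correction. Arg1, an arginase, had a log2 ratio of 0.95 and Cacna2d1, the calcium channel subunit that binds gabapentin, one of 0.83. Gap43, a growth cone protein, was at 0.33. The satellite glia list had a median of 0.19 over 13 genes.

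**Figure D2:**
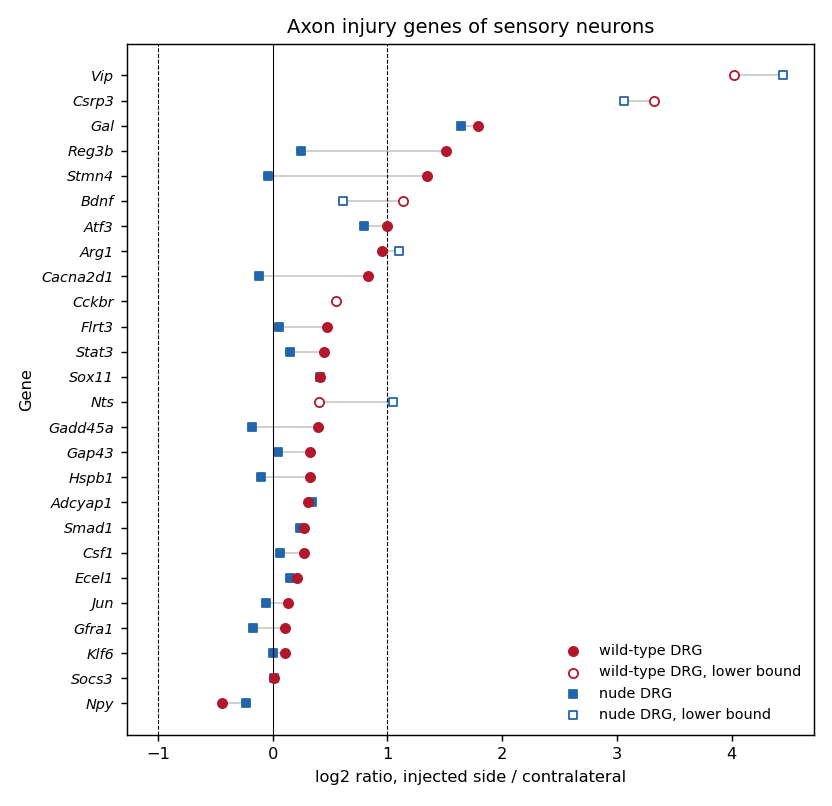
Log2 ratio of injected side over contralateral side for the 26 axon injury genes with a ratio in wild-type DRG (circles) and the same genes in nude DRG (squares), with open symbols for bounds and dashed lines at 2-fold. Vip, Csrp3 and Gal lie far to the right in both rat types, while Reg3b, Stmn4 and Cacna2d1 lie near 0 in nude DRG.

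Csrp3, the muscle LIM protein, is made by striated muscle and also by injured sensory neurons. It was at 2.05 array medians on the injected side, 9.98-fold over its dim contralateral signal, and in nude DRG 8.36-fold over a dim signal. Neither dim signal was raised, so these folds are not lower limits. Several muscle genes were higher beside it. The wild-type ganglia had 20 measured skeletal muscle genes, with 17 above 0, 4 at least 2-fold higher (1.19% of all genes) and a median of 0.20. Without 5 bounds, 12 of 15 were above 0 and 1 was at least 2-fold higher, against 49.9% and 0.412% of all genes measured on both arrays. The 4 were the slow-fibre genes Myh7, Tnni1 and Tnnt1 and the fast myosin Myh4. The cardiac myosin Myh6 was at 4.68 and 0.649 array medians, 7.21-fold higher. Tnnt1 was at 9.95 and 3.23 array medians, and its further probe was higher too, by 2.10 (log2). Other muscle genes stood near 0 in wild-type DRG, with Myh1 at -0.07, the actin Acta1 at -0.10 and Actn3 at 0.05. In nude DRG the median of the muscle list was 1.10, with a bound of 3.51 for Myh1, 2.59 for Actn3 and 0.11 for Acta1. The muscle list summed to 72.9 array medians on the injected side and 57.5 on the contralateral side in wild-type DRG, and the part of muscle tissue in the Csrp3 value was not tested.

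Several secreted proteins outside the injury list were higher on the injected side of both rat types, and they were chosen here after their values were seen. Crisp3, a cysteine-rich secretory protein, had spots of 125 and 129 on the injected side and of 2.36 and 2.78 on the contralateral side. It was at least 14.7-fold higher, with a bound of 3.46 (log2) in nude DRG. Urocortin (Ucn), a peptide of the corticotropin-releasing family, was 4.38-fold over a dim contralateral signal that was not raised. The cytokine gene Il24 was at least 4.41-fold higher. The chemokine Ccl17 was 4.05-fold over a dim signal, also not raised. With normexp background correction the log2 ratios of Ucn, Il24 and Ccl17 were 0.46, 0.41 and 0.38. Cxcl14 was measured on all 4 DRG arrays, at 3.36 and 1.20 array medians in wild-type DRG and at 1.65 and 0.639 in nude DRG, with log2 ratios of 1.49 and 1.37. In the wild-type nerve the log2 ratio of Cxcl14 was 0.32. Transthyretin (Ttr), a carrier of thyroid hormone, had log2 ratios of 1.29 in wild-type and 1.11 in nude DRG.

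Vgf, the precursor of several neuronal peptides, differed from these. It was at 4.23 and 1.92 array medians in wild-type DRG, 2.21-fold higher on the injected side, and at 3.70 and 3.52 in nude DRG, where its log2 ratio was 0.07. Cx3cl1, the neuronal chemokine fractalkine, was similar, with a log2 ratio of 0.99 in wild-type and 0.04 in nude DRG. Whether the rat types differ in these genes was not tested.

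**Figure D3:**
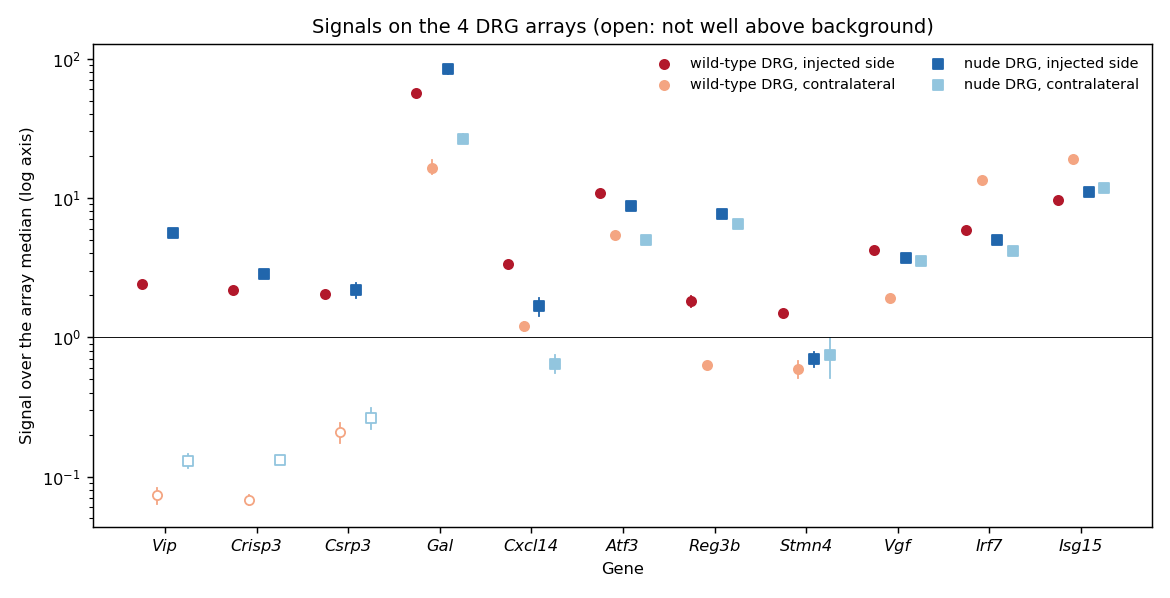
Signal over the array median (vertical, log axis) of 11 genes on the 4 DRG arrays, with a symbol at the median of the spots, a line from the lowest to the highest spot, and open symbols where the probe was not well above background. The injected side is above the contralateral side for Vip, Crisp3, Csrp3, Gal, Cxcl14 and Atf3 in both rat types, and below it for Irf7 and Isg15 in the wild-type DRG.

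The genes higher in both rat types were counted over the 10023 genes that had a ratio in both. Of the 59 such genes that were at least 2-fold higher in wild-type DRG, 20 were also at least 2-fold higher in nude DRG. They are 33.9% of these 59 and 11.9% of the 168 genes higher in nude DRG. Of all 10023 compared genes, 1.68% were higher by that fold in nude DRG. In 15 of the 20 the value is a bound in at least 1 rat type, so that a dim contralateral side was part of how they came to be compared. The 5 measured on all 4 arrays were Gal, Cxcl14, Ttr, Bglap and RatNP-3b, the last with 1 spot per wild-type array. Among the 20 were the injury genes Vip, Csrp3 and Gal, the secreted proteins Crisp3, Ucn, Il24, Ccl17, Cxcl14, Ttr and Hamp, the muscle genes Ampd1, Cox6a2 and Hspb7, the adipocyte genes Adipoq and Retn, the osteocalcin gene Bglap, the neutrophil defensin RatNP-3b, and Pm20d2 and Eno4. Of the 40 genes at least 2-fold lower in wild-type DRG, 1 (2.5%) was lower by that fold in nude DRG, against 0.758% of all compared genes. It was the cartilage gene Chad, at -1.04 and -1.58. In the opposite direction, 5 of these 40 genes were at least 2-fold higher in nude DRG, against 1.68% of all compared genes. Of the 59 higher genes, 4 were at least 2-fold lower in nude DRG, against 0.758%. Over the 9327 genes measured on all 4 arrays, the ratios of the rat types had a Pearson correlation of -0.09 across genes, which are not independent and share the brightness of their arrays.

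Interferon-induced genes were lower on the injected side. Of 23 measured genes of that list, 19 were below 0, 3 at least 2-fold lower (0.608% of all genes) and none 2-fold higher, with a median log2 ratio of -0.38. The median stayed below 0, from -0.45 to -0.03, in the other settings tried, but was 0.17 with the arrays scaled to the spike-in transcripts. Irf7, the factor that amplifies the interferon response, had spots of 338 and 345 on the injected side and of 482 and 528 on the contralateral side. It was 2.26-fold lower in array medians, and its signal was also lower without any scaling. Oas1a, an enzyme that senses viral RNA, was 2.15-fold lower, and Usp18, which shuts off the response, 2.10-fold lower, with a further probe at -0.94 (log2). Isg15, the ubiquitin-like protein of the response, was at 9.60 and 19.2 array medians, a difference just short of 2-fold. Rsad2 followed at -0.78.

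In the wild-type nerve these genes were on the other side. Of the 23 genes, 22 were above 0 on the injected side of the nerve and 9 at least 2-fold higher (5.83% of all genes there). Isg15 had a log2 ratio of 3.34 in the nerve, Rsad2 2.65 and Oas1a 2.50. Of the 23 genes, 18 were below 0 in the DRG and above 0 in the nerve. In nude DRG the median was -0.04 over 21 genes, and none was 2-fold apart.

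**Figure D4:**
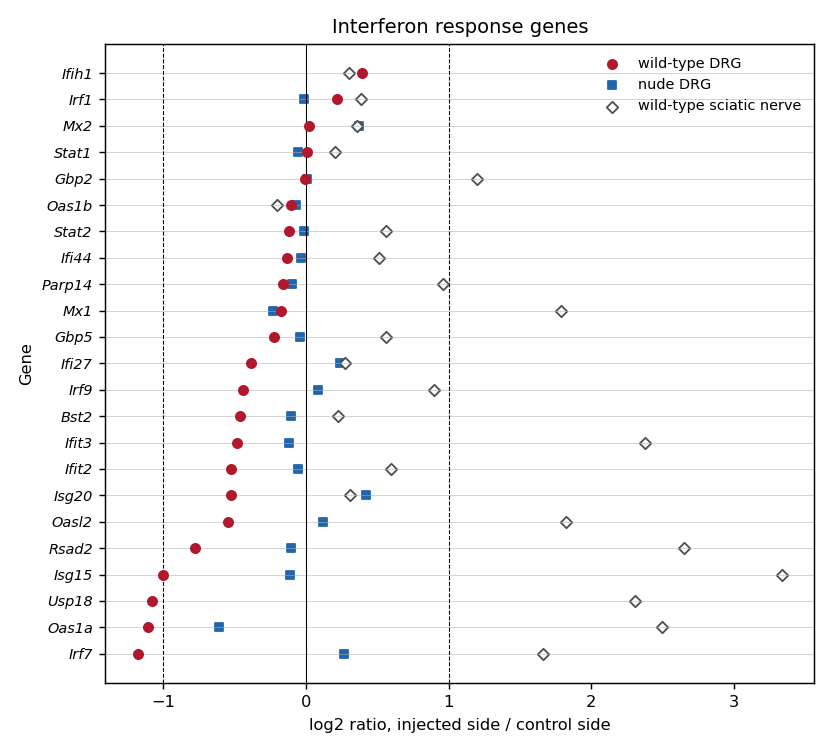
Log2 ratio of injected over control side for the 23 interferon response genes measured in wild-type DRG (circles), nude DRG (squares) and wild-type sciatic nerve (diamonds), with dashed lines at 2-fold. Irf7, Oas1a, Usp18 and Isg15 are lowest in the wild-type DRG at about 2-fold below 0, while the nerve values of Isg15, Rsad2 and Oas1a lie above 2.

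Genes of blood cells stood lower on the injected side as well. The 11 measured genes of red blood cells had a median of -0.59, and 10 of them were below 0. None was 2-fold apart. Their summed level was 16562 array medians on the injected side and 23980 on the contralateral side. The 3 lowest were Hemgn at -0.98, Alas2, the enzyme that starts heme synthesis in red cells, at -0.96, and Hba-a3 at -0.94. With spike-in scaling the median was -0.01. In the wild-type nerve the red cell list had a median of 1.95 and in nude DRG of 0.12. T cell genes had a median of -0.44 over 11 genes, 8 of them below 0, but at low signals that summed to 15.3 and 21.2 array medians. Cd3d, a chain of the T cell receptor complex, was at 4.54 and 7.01 array medians, and Cd4 at 0.09 (log2). The T cell median was 0.19 with spike-in scaling, and the part of blood in the interferon values was not tested.

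Myeloid cells and inflammatory mediators showed little difference between the sides of the wild-type DRG. The macrophage list had a median of -0.05 over 19 genes with none 2-fold apart, where the nerve had a median of 0.73. Aif1, the Iba1 protein of macrophages, was at 56.2 and 58.8 array medians. The neutrophil list had a median of -0.08 over 8 genes, between -0.84 and 0.60. In nude DRG its median was 0.91, with 3 of 7 at least 2-fold higher (1.79% of all genes there). Inflammatory mediators had a median of 0.05 over 19 genes, and Tnf had a log2 ratio of -0.22 and Timp1, the inhibitor of metalloproteinases, of 0.07. In the nerve Timp1 had a log2 ratio of 2.16. Mmp2 was at 57.8 and 53.8 array medians in the DRG. Mmp9 and Il17a had no ratio in the wild-type DRG. Among 27 antigen presentation genes, with a median of -0.04, Tap2, a subunit of the peptide transporter, stood apart at 3.29 and 0.945 array medians, 3.49-fold higher. Its partner Tap1 was at -0.49, and Tap2 in nude DRG was at 0.14.

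Myelin genes of Schwann cells were slightly lower on the injected side, where 16 of 17 were below 0 and the median was -0.21. None was 2-fold lower. Among all genes 53.4% were above 0, but bright genes leaned lower, and the myelin genes were bright. The tenth of genes with the highest signals had a median of -0.06, and 20 of 21 ribosomal protein genes were below 0. The myelin median was 0.13 with normexp background correction and 0.35 with spike-in scaling. Mbp, the gene of the protein from which the injected peptide derives, was at 4144 and 5352 array medians, a log2 ratio of -0.37. A dimmer Mbp probe had a log2 ratio of 0.56, and the mean over both probes gave 0.09. In the authors' normalized values the ratio of Mbp was 0. Its probe was the highest on both arrays there, and columns with the same sorted values give such a probe no difference. In the nerve the myelin median was -0.87, with 7 of 17 genes at least 2-fold lower (4.78% of all genes there). The list of repair Schwann cells had a median of 0.26 over 13 genes in the DRG.

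Genes of cell division were higher on the injected side at low signal. Of 16 measured genes 14 were above 0 and 2 at least 2-fold higher (1.19% of all genes), Cenpf as a bound and Plk1, just past the threshold at 1.29 and 0.642 array medians. Without 3 bounds, 11 of 13 were above 0, against 49.9% of all genes measured on both arrays, with a median of 0.45. The median of 0.63 over all 16 was close to the 0.64 of nude DRG and below the 1.70 of the wild-type nerve, but was 0.09 with normexp background correction. Rrm2, a subunit of the enzyme that makes deoxynucleotides, was at 6.55 and 4.14 array medians.

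The listed genes of ion channels and nociceptors stayed within 2-fold with few exceptions. The median was 0.16 over 37 voltage-gated channel genes, 0.08 over 12 peptidergic and -0.10 over 9 non-peptidergic nociceptor genes, and 0.07 over 14 genes of TRP, P2X and ASIC channels. Genes of myelinated mechanoreceptors and proprioceptors had a median of 0.26 over 12 genes, 11 of them above 0. In nude DRG that median was -0.11. The channel list had 2 genes at least 2-fold lower (0.608% of all genes) and none higher by that fold. Scn2a, a sodium channel gene outside the list, was at 0.576 and 0.247 array medians, 2.33-fold higher. Its log2 ratio was 0.18 with normexp background correction. Cacna1h, a T-type calcium channel, was at 0.809 and 3.37 array medians, 4.16-fold lower, on 1 spot per array. In nude DRG the log2 ratio of Cacna1h was -0.33.

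**Figure D5:**
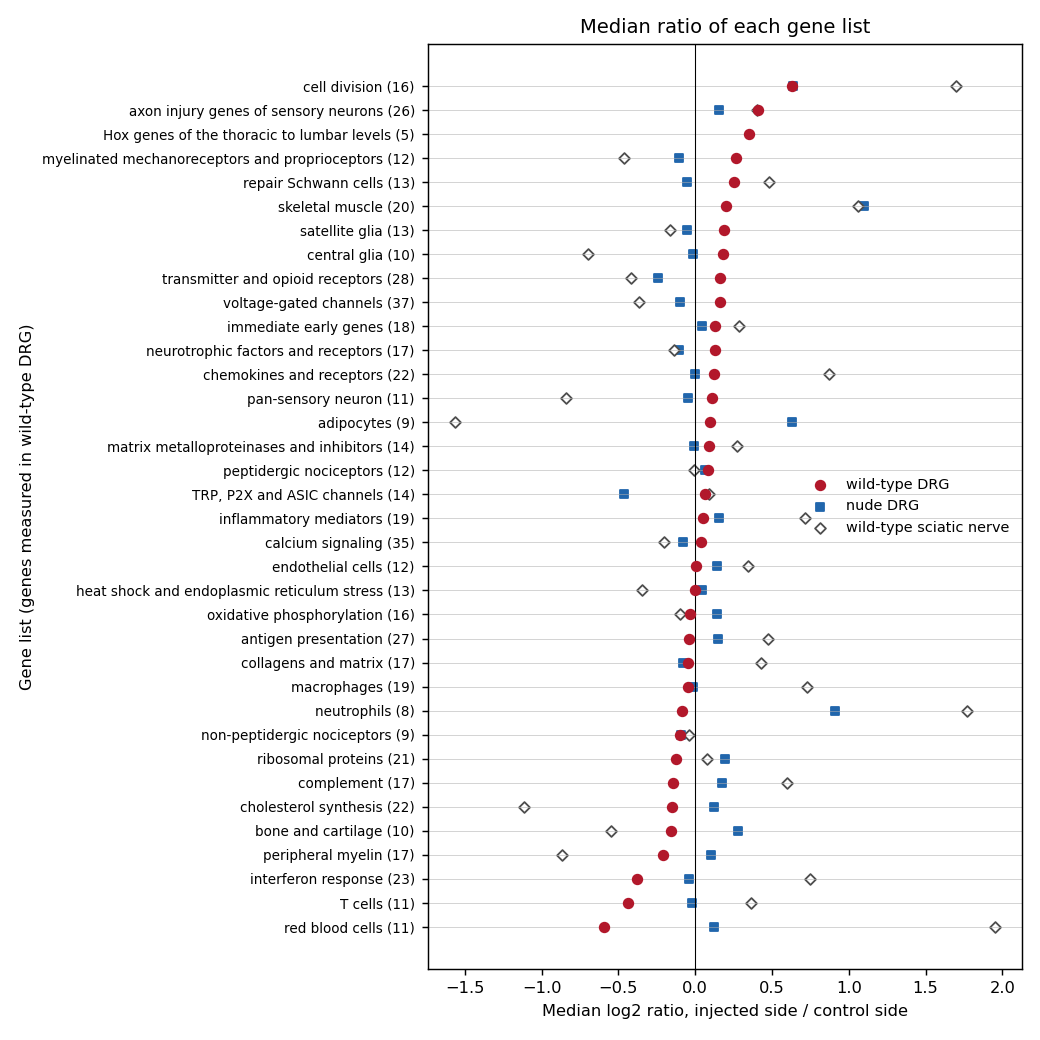
Median log2 ratio of injected over control side for each gene list with at least 5 measured genes in wild-type DRG (circles; number of genes in brackets), nude DRG (squares) and wild-type sciatic nerve (diamonds). In the wild-type DRG cell division (0.63) and axon injury (0.41) lie highest and red blood cells (-0.59) lowest, with most other lists near 0.

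Some genes of central nervous tissue were above background on the injected side only. The chloride transporter gene Slc12a5, found in central neurons, had a signal of 87.9 on the injected side and 5.30, not well above background, on the contralateral side, at least 10.2-fold higher. Slc1a2, an astrocyte glutamate transporter, and Mog, an oligodendrocyte protein, had bounds of 1.82 and 1.56 (log2). The probes of Aqp4 disagreed. The probe used was lower on the injected side, at -1.05, and a further probe was higher, at 3.08, with spots of 164 and 182 against 9.74 and 18.1. Gfap was at -0.07 and 5 of the 10 genes of central glia with a ratio were below 0, with a median of 0.18. Over the 7 measured on both arrays 2 were above 0 and the median was -0.07, and the summed level of the list was 17.1 array medians on the injected side and 19.6 on the contralateral side.

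Among the genes measured on both arrays, the 15 with the highest ratios lay between 1.34 and 2.85. Beside those above they were Pcif1, Ing3, Alkal2, Gli2, Itih3, Hira, Retn and Wscd1. The 2 spots of Pcif1 on the injected-side array were at 39.5 and 591 and overlapped the contralateral values in array medians. Hira and Alkal2 had 1 spot per array. In nude DRG 3 of the 15 were at least 2-fold higher (1.79% of all genes there). The 15 lowest genes lay between -2.58 and -1.33 and were brighter, with a median signal at the 80.4th percentile of all genes against the 30.1st for the 15 highest. Among them were Lefty2, Ush1c, Loxhd1, Cacna1h, Spag11a, Fgf17, Tuba3b, Sfrp5, Slc7a3l1, Chrna1, Vom2r12, Mutyh, Fbxl15 and Rasal1. The value of Ush1c rests on 1 bright contralateral spot, at 205 beside 11.3, with the injected-side spots at 14.5 and 15.7. Loxhd1 had 1 spot per array at -2.15 (log2), and a further probe at -0.36. None of the 14 lowest genes with a ratio in nude DRG was 2-fold lower there, where 0.803% of all genes were. Of the 14, 13 were above 0 in nude DRG, against 53.7% of all genes there. Lefty2, a secreted inhibitor of nodal signals, was at 27.7 and 166 array medians, 5.98-fold lower, and was brighter on both nude arrays, at 1229 and 425. Of the 11 called genes with a further probe measured on both arrays, 8 further probes lay on the same side of 0 and 2, those of Gal and Tnnt1, were at least 2-fold apart in the same direction.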

How the data were processed

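Total RNA (50 ng) of rat tissues, pooled from 3 rats per array, was labelled with Cy3 and measured on the Agilent SurePrint G3 Rat GE 8x60K array, in a single colour. The deposited intensity values are the authors' scanner output, processed spot signals after background subtraction and detrending within an array, with no step between arrays. The labels name Feature Extraction 10.5 and the file headers 10.7.3.1. The other deposited values are flags of the authors' software for outlying spots, saturation (no spot) and signal well above background. A further table holds the authors' normalized log2 values, used as an alternative only. Its columns have the same sorted values, as after quantile normalization.

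Here, spots flagged as outliers were left out (519 and 488 of 58717 non-control spots on the wild-type DRG arrays), log2 signals were averaged per probe, and the array median was subtracted. A probe counted as well above background where at least 0.5 of its spots did. A dim side below the lowest signal well above background on its array was raised to that signal, which gives a limit ("at least"). A dim side above that signal kept its own value. Both kinds are called bounds, but only the first is a limit, and 595 probes for which this gave no bound were left out. Genes were named from RefSeq accessions (GRCr8) and represented by their brightest probe, since probe sequences were not used, and family members may share signal. A gene was called at 2-fold.

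Named were the 15 highest and lowest ratios among genes measured on both arrays, and, of 37 gene lists, the first 2 genes and the 6 with the largest ratios. Genes of the study's other assays were added (Mmp9, Mmp2, Timp1, Tnf, Il17a, Mbp, Cd4, Foxn1 and Gapdh), as were genes chosen after their values were seen: those shared with nude DRG, Vgf, Slc12a5 and Scn2a, and members of the plotted lists. A list needed 5 measured genes for a median. The lists were marker and pathway lists for neurons, glia, immune, vessel, muscle, fat, blood, bone and central cells, and for injury, interferon, channels, receptors, signaling, matrix, stress, metabolism and division. The members and lists were chosen with earlier results of these data known. Gapdh, often used as a reference gene, had a log2 ratio of -0.46, and Foxn1 is given with the closing observations. Some genes that the rule names are not reported here.

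Other settings were tried one at a time. Scaling was by cyclic loess, by quantiles, to the 75th percentile, or as in the authors' normalized values, and background was also corrected with normexp (offset 50). Filters were a signal well above background on each of the arrays, or neither filter nor floor. Outlier spots were kept, a gene was the mean of its probes, or the threshold was 3-fold. Normexp used the median spot signal instead of the mean, which had been intended. Spike-in scaling was added after the data were seen. The steps were tested on simulated data. The software was R 4.3.3 with limma 3.58.1, and Python 3.11.15 with pandas 2.3.3, numpy 2.4.6 and matplotlib 3.10.9. The number of arrays limits the precision.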

Additional observations from a re-analysis of the deposited data

Results flagged for a closer look

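Among the named genes, 6 were at least 2-fold apart in opposite directions in wild-type and nude DRG, and the difference was not tested. Foxn1, the gene mutated in nude rats, had a log2 ratio of -1.15 in wild-type DRG and a bound of 1.27 in nude DRG, at signals of 42.2 and 61.3 on the wild-type arrays. The chromatin factor gene Ing3 had a ratio of 1.84 in wild-type and -1.40 in nude DRG. Lefty2 stood at -2.58 and 1.53, and Sfrp5, a secreted antagonist of Wnt signals, at -1.65 and 1.30, on bright probes in both rat types, that of Sfrp5 with 1 spot per array. A further Sfrp5 probe had a log2 ratio of -0.42 in wild-type DRG. Slc7a3l1 stood at -1.58 and 1.01. Spag11a stood at -1.73 in wild-type DRG, with a bound of 1.77 in nude DRG.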

How the results depend on the processing

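Of 77 named genes at least 2-fold apart, 21 stayed past 2-fold on the same side in every other setting that gave a value, the later spike-in scaling aside, among them Vip, Crisp3, Csrp3, Gal, Cxcl14, Myh6, Tap2 and Lefty2. Normexp had the strongest effect, keeping 20 of 76 past 2-fold. It left 25 genes higher and 8 lower (68 and 11 probes) and moved the median of all genes by 0.14, and 86.1% of its called probes were higher, against 65.6% in the reported setting. With both arrays well above background, 44 genes and 95 probes were higher, since the bounds drop out, and the share of higher genes among those called was 43.1% against 66.2%. With no filter and no floor, 296 genes were higher and 307 lower (758 and 737 probes). At 3-fold, 26 genes were higher and 9 lower (49 and 21 probes). Scaling to spike-in transcripts gave 1000 genes higher and 12 lower (2133 and 24 probes), with 98.8% of the called genes higher, by construction a shift of every gene. The sign of the Aqp4 ratio turned in the mean over its probes (0.79). Of 36 list medians, 20 kept their sign in every setting apart from spike-in scaling, and 18 with it included. No paired analysis was possible because each side has 1 array, and for the same reason no array could be left out. Probes near background, where most bounds lie, limit what can be measured. Bounds rest on the lowest signal well above background, 4.44 on the injected-side and 5.62 on the contralateral array, or on a dim signal above it.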
